A study of Mus musculus with 28 samples.

Results

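Every protein-coding gene of the mouse was sorted by the histone marks that lay at its start sites in mesodermal cultures in which Brg1 had been deleted with 4-hydroxytamoxifen (4-OHT). The 5 samples used were 2 ChIP-seq replicates of H3K27ac and 3 of H3K27me3, out of 28 samples in the series. A gene had H3K27ac when an enriched region overlapped the 2.5 kb on either side of any of its transcription start sites (TSSs) by at least 1 bp in both replicates, and it had H3K27me3 when this held in at least 2 of the 3 replicates. Of 22367 protein-coding genes with 70051 TSSs, 10060 (45.0%) had H3K27ac only, 2022 (9.04%) had H3K27me3 only, 697 (3.12%) had both marks and 9588 (42.9%) had neither.

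Lysine 27 of histone H3 can carry an acetyl group or methyl groups, but not both on the same tail. Acetylation (H3K27ac) is placed by p300 and CBP and is found at promoters and enhancers in use, whereas trimethylation (H3K27me3) is placed by Polycomb repressive complex PRC2, of which Suz12 is a subunit, and covers developmental genes that are held silent. Brg1, encoded by Smarca4, is the ATPase of the BAF chromatin remodeling complexes. Work in Drosophila classed these complexes as opponents of Polycomb repression, whereas the study of these cultures proposes that Brg1 and Polycomb complexes cooperate.

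All cultures came from Brg1f/f;Actin-CreER mouse embryonic stem cells (ESCs), in which the floxed Brg1 alleles are intact until the constitutively expressed Cre fusion protein is activated. ESCs were grown as embryoid bodies in serum-free medium to day 2, then dissociated and reaggregated for 40 hours with VEGF, Activin A and BMP4, which induces mesoderm, and were collected at day 4. At day 2 the cultures received 200 nM 4-OHT in tetrahydrofuran (THF), which activates Cre, or THF alone, which is the control. Brg1 protein is lost over time after the allele is deleted, so the 4-OHT cultures held Brg1 for part of the induction. The control libraries, 2 of H3K27ac and 3 of H3K27me3, were used to compare the classes, and the 2 Suz12 libraries of each condition and 3 FLAG libraries, made against tagged Brg1 in cultures whose labels name no 4-OHT, were used as measures that the sorting had not used. For the FLAG libraries the labels name the same line, whereas the methods of the study describe ESCs with a FLAG tag on the endogenous Brg1 protein.

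The deposited lists give the position of each enriched region and neither a score nor a read count, so sequencing depth is unknown. The number of regions and the bases they cover are given instead, and they do not measure depth. These measures can differ, as H3K27me3 replicate 1 had the most regions and the fewest covered bases in each condition. H3K27ac lists held 32161 to 41062 regions and H3K27me3 lists 6787 to 16959. H3K27me3 replicate 1 stood apart in both conditions, with regions no wider than 7.55 kb after 4-OHT and 9.30 kb in control, against 33.4 to 94.7 kb at the widest in the other 4 lists. FLAG replicate 3 held 192 regions against 8021 and 8257 in replicates 1 and 2. The cultures are mixtures of cells, so a gene listed with both marks may carry them on the same chromatin or in different cells, which cannot be told apart here, and fewer cells with a mark and less mark per cell cannot be told apart either. Below, the covered length of a gene is the largest number of bases that regions of 1 library cover in the 5001 bp window of any of its TSSs.

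The gene start is here the 5′ end of the gene, whereas the sorting took any of its TSSs. The median number of TSSs was 3 with H3K27ac only, 2 with H3K27me3 only, 3 with both marks and 1 with neither. Genes with more TSSs had more windows in which to be called, and with the 5′-most TSS alone 515 genes had both marks. The classes differed in the sequence at the gene start, which the sorting had not used. The 250 bases upstream of 5 gene starts are shown to make this visible, with each CpG dinucleotide (CG) in capitals and read 5′ to 3′ on the strand of the gene, from build mm9. Mixl1 and Gsc, homeobox genes of the primitive streak with both marks, are on the minus strand at chr1:182627166-182627415 and chr12:105711538-105711787. Mixl1 entered this class by only 25 bp of H3K27me3 in each of replicates 1 and 3. Hoxd13, a homeobox gene of the distal limb with H3K27me3 only, is on the plus strand at chr2:74506117-74506366, and Nkx2-5, a cardiac homeobox gene of the same class, is on the minus strand at chr17:26978511-26978760. Olfr16, an odorant receptor gene with neither mark, is on the plus strand at chr1:174886649-174886898. These genes were chosen after their classes were known.
Mixl1: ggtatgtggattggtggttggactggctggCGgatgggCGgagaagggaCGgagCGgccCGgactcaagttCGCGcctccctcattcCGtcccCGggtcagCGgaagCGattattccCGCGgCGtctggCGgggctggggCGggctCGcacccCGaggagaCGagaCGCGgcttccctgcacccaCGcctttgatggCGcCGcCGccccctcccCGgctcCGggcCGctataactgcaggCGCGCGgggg
Gsc: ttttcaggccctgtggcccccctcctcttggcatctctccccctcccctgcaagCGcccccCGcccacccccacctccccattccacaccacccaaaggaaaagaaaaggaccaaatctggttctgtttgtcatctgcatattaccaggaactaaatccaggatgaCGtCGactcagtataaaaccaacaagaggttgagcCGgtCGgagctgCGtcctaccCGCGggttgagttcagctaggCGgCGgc
Hoxd13: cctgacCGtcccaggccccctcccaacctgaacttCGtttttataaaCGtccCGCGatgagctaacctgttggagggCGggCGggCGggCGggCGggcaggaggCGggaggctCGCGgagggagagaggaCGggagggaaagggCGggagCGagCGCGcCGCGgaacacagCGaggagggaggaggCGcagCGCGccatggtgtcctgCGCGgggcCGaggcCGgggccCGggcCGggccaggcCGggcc
Nkx2-5: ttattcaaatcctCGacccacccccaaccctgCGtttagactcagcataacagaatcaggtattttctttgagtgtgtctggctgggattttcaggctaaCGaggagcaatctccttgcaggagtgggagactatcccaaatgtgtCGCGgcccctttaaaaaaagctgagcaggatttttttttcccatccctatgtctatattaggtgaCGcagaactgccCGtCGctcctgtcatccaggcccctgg
Olfr16: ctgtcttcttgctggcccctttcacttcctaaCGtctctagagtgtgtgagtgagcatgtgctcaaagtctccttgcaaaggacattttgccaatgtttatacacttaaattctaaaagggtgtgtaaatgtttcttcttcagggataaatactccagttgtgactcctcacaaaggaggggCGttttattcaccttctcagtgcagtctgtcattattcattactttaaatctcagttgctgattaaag

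These stretches hold 31 CpGs at Mixl1, 11 at Gsc, 31 at Hoxd13, 8 at Nkx2-5 and 2 at Olfr16. The median over the genes of a class was 16 CpGs with H3K27ac only, 14 with H3K27me3 only, 18 with both marks and 2 with neither, against 8 over all genes. Within 500 bp on either side of the gene start, the ratio of observed to expected CpGs had a median of 0.746 with H3K27ac only, 0.670 with H3K27me3 only, 0.741 with both marks and 0.214 with neither. The middle 50% of the genes spanned 0.609 to 0.853, 0.532 to 0.782, 0.613 to 0.854 and 0.129 to 0.366, so the 3 marked classes overlapped widely and the unmarked class lay below them. A ratio of at least 0.6 was found in 76.1%, 63.4%, 76.8% and 7.64% of the genes of these classes and in 45.6% of all genes. Median GC content was 58.9%, 60.8%, 62.6% and 47.0%.

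When the genes were split into 5 equal groups by this ratio, neither mark was found at 91.8% of the genes in the lowest group and at 3.33% in the highest. H3K27ac only went from 6.15% to 81.6% of the genes and both marks from 0.425% to 5.50%. H3K27me3 only did not follow the same order, with 1.59%, 4.25%, 15.4%, 14.3% and 9.59% from the lowest to the highest group. The 8155 genes with neither mark that are not odorant or vomeronasal receptors had a median ratio of 0.243, close to the 0.214 of the whole class. Genes are not replicates, and these shares are a description of the 5 libraries.

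**Figure D1:**
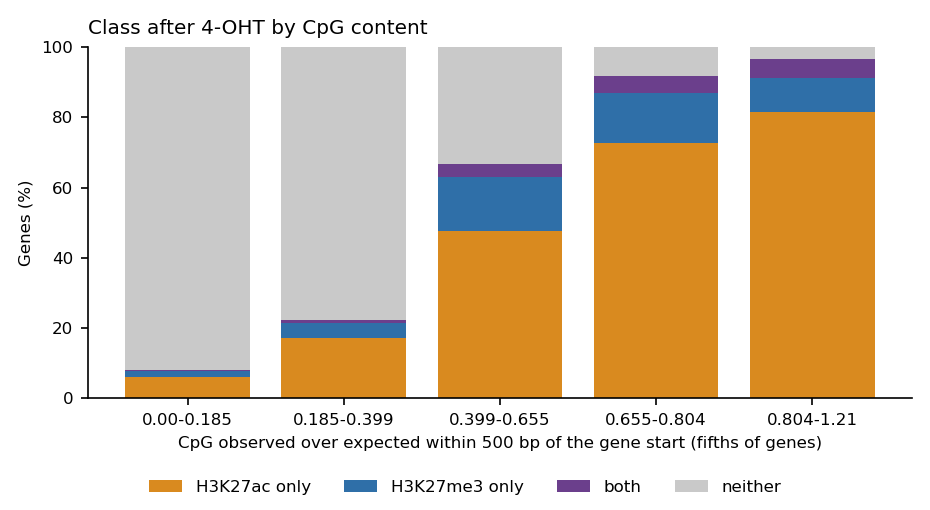
Class of the protein-coding genes after 4-OHT in 5 equal groups of genes by the ratio of observed to expected CpGs within 500 bp of the gene start; the vertical axis gives the percent of genes in each class and the horizontal axis the range of the ratio. The share with neither mark is 91.8% in the lowest group and 3.33% in the highest, and H3K27me3 only is largest in groups 3 and 4, at 15.4% and 14.3%.

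Smarca4, the gene that encodes Brg1, lies on chromosome 9 from 21420613 to 21508674 on the plus strand and was in the H3K27ac only class. Its H3K27ac covered length was 3250 and 3375 bp after 4-OHT and 2875 and 2450 bp in control, so both 4-OHT libraries were above both control libraries. No H3K27me3 or Suz12 library held a region there. A mark at the promoter does not show whether the floxed allele was deleted, so these values do not check the deletion.

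With H3K27ac only, regions were centred just downstream of the gene start. In replicates 1 and 2, 69.0% and 67.2% of these genes were covered at the start itself and 84.4% and 83.3% at 250 bp downstream, which was the highest share, and by 10 kb on either side the share was 4.02% to 4.68%. The median covered length was 1412.5 bp, and with the regions of both replicates merged the widest at such a gene measured 18.4 kb, at Cdh1, the E-cadherin gene. It was followed by Zmynd8, a chromatin reader, at 17.5 kb, Arid3b, a DNA-binding protein, at 17.2 kb, and Hnrnpf, an RNA-binding protein, at 15.1 kb in a region shared with the overlapping gene 4933440N22Rik.

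With H3K27me3 only, the mark lay on both sides of the gene start and was lower on it. In replicates 1, 2 and 3, 3.46%, 38.3% and 28.9% of the genes were covered at the start, against the highest shares of 24.3% at 1750 bp, 61.1% at 750 bp and 49.6% at 1000 bp downstream. Upstream the highest shares were 23.2% at 1000 bp, 40.7% at 500 bp and 33.0% at 500 bp. In replicates 2 and 3 the upstream side was thus only slightly above the start. Replicate 1 had the deepest gap at the start and the narrowest regions. Suz12 was not lower there to the same extent, with 33.6% and 44.5% of the genes covered at the start in its 2 libraries and the highest shares of 41.2% and 53.0% at 250 bp downstream. The median covered length of H3K27me3 was 1359.5 bp. With the regions of the 3 replicates merged, the widest was 47.1 kb long, against 43.5 kb at the most in a single 4-OHT library, lay on chromosome 6 from 52158126 to 52205275, and touched windows of Hoxa6, Hoxa7, Hoxa9, Hoxa10 and Hoxa11, homeobox genes of trunk and limb patterning.

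With both marks, H3K27ac lay at the gene start and H3K27me3 at its sides. H3K27ac covered 49.9% and 44.0% of these genes at 250 bp downstream, and H3K27me3 covered at most 15.2%, 33.9% and 24.1%, at 1750, 1250 and 1500 bp downstream. Covered lengths were shorter than where a mark was alone, with a median of 862.5 bp of H3K27ac and 625 bp of H3K27me3.

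**Figure D2:**
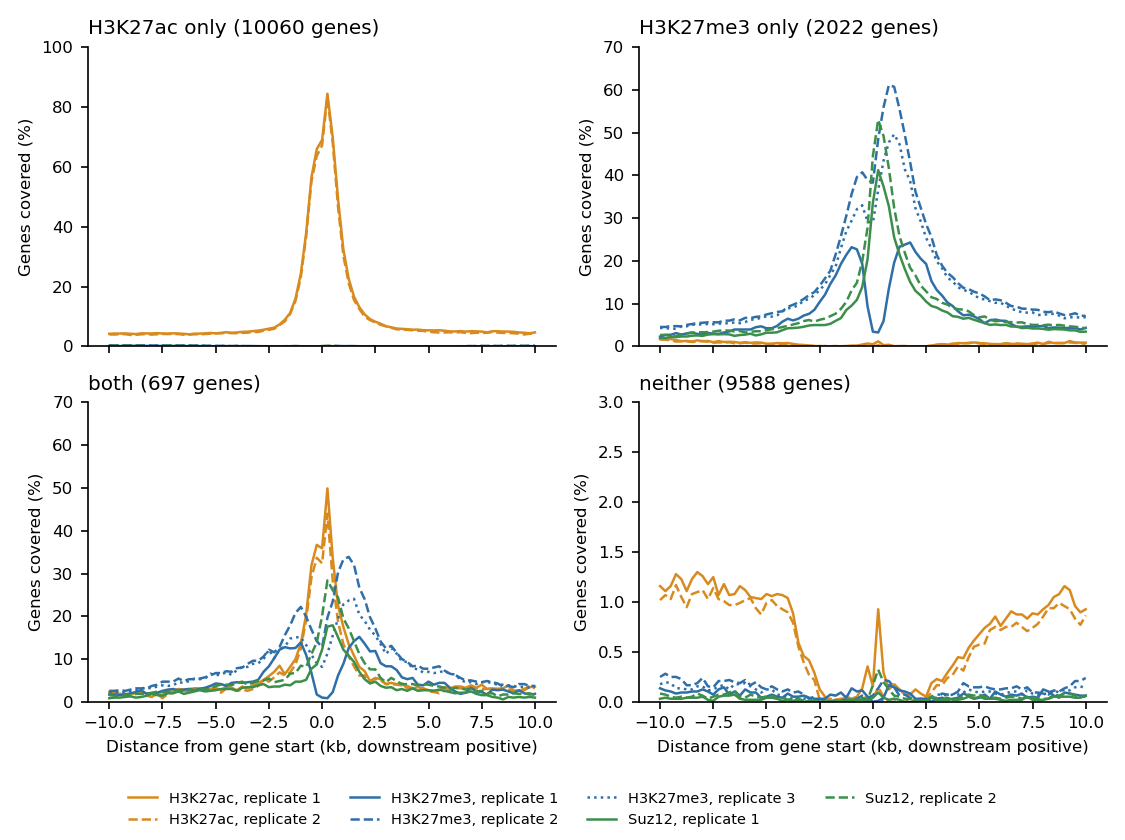
Percent of the genes of each class whose sequence is covered by a region at each distance from the gene start, from 10 kb upstream to 10 kb downstream in steps of 250 bp, in each 4-OHT library; the vertical axes differ between panels. H3K27ac is highest at 250 bp downstream, at 84.4% and 83.3% of genes with H3K27ac only and 49.9% and 44.0% of genes with both marks, whereas H3K27me3 dips at the start and is highest 750 to 1750 bp downstream.

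The marks rarely shared bases. Over the genome, 23.1 Mb were covered by H3K27ac in both replicates and 7.62 Mb by H3K27me3 in at least 2 of 3, and 28.0 kb were covered by both, which is 0.121% of the first and 0.367% of the second. Of the 697 genes with both marks, 63 (9.04%) had such shared bases in a TSS window, 547 (78.5%) had the marks in the same TSS window without a shared base, and 87 (12.5%) had them at different TSSs of the gene. Counting a base covered in any replicate of each mark, 176 genes (25.3%) had shared bases, and single pairs of libraries gave 25 to 159 genes, the lowest counts being those with H3K27me3 replicate 1. In the 610 genes with the marks in 1 window, the nearest regions of the marks lay 350 bp apart at the median, with the middle 50% between 0 and 750 bp.

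The most shared bases were found at Bhlhe41, a basic helix-loop-helix repressor of the circadian clock, with 1754 bp. At Bhlhe41, H3K27ac covered 4329 and 2854 bp, H3K27me3 900, 3929 and 3029 bp and Suz12 4004 bp in each library after 4-OHT. Gsc and the neighbouring gene Gm10000, whose starts lie within 2.5 kb of each other, shared 1750 bp. They were followed by Atf3, a stress-induced transcription factor, with 1094 bp and Hsf4, a heat shock factor, with 750 bp. In all, 404 of the 697 genes (58.0%) had more bases of H3K27ac and 292 (41.9%) more bases of H3K27me3, and 95 (13.6%) had at least 1000 bp of each. Another protein-coding gene had a TSS within 2.5 kb at 147 of the 697 (21.1%), so that the marks of a pair of genes are counted for each, against 28.3% with H3K27ac only, 10.6% with H3K27me3 only and 6.33% with neither.

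Suz12 regions followed H3K27me3. A region of Suz12 was present in both 4-OHT libraries at 8.01% of all genes, at 1385 of the 2022 genes with H3K27me3 only (68.5%), at 336 of the 697 with both marks (48.2%), at 35 with H3K27ac only (0.348%) and at 35 with neither (0.365%). In both control libraries it was present at 6.08% of all genes and at 1091 (54.0%), 244 (35.0%), 12 (0.119%) and 14 (0.146%) of the genes of these classes. By library, the shares after 4-OHT were 69.4% and 79.5% with H3K27me3 only and 49.6% and 62.8% with both marks. In control they were 59.1% and 59.4%, and 40.7% and 41.3%. Each 4-OHT library was above each control library in these classes, by 1.26 and 1.37 times in the means, and the exact two-sided permutation test gave p = 0.333 for each class, the smallest p that 2 libraries against 2 allow. Sorting by marks of the 4-OHT cultures can favour Suz12 of the same cultures. With the classes sorted in control, Suz12 was in both 4-OHT libraries at 61.9% with H3K27me3 only and 38.3% with both marks. In both control libraries these shares were 49.1% and 26.2%. By read density, the study reports a small reduction of Suz12 at derepressed genes. The 4-OHT lists of Suz12 also held more regions, 3654 and 4016 against 2951 and 2913, and the median covered length of the genes with a region was lower, with means of 812.5 and 912.5 bp (p = 0.333 in the same exact test). Among the genes with both marks, Suz12 was found in both libraries at 87.3% of those with shared bases, at 42.8% of those with the marks in the same window without a shared base and at 54.0% of those with the marks at different TSSs.

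FLAG regions were placed otherwise. A region in at least 2 of the 3 libraries was present at 3.84% of all genes, at 105 of the 697 genes with both marks (15.1%), at 625 with H3K27ac only (6.21%), at 61 with H3K27me3 only (3.02%) and at 67 with neither (0.699%). In replicates 1 and 2 alone, regions were found at 189 and 174 of the genes with both marks, at 15.5% and 13.2% of those with H3K27ac only, at 8.70% and 7.37% with H3K27me3 only and at 1.68% and 1.66% with neither. The order of the classes was the same in these libraries, although 71.9% of the genes with a FLAG region had it in 1 library only. Replicate 3 listed 2, 37, 0 and 1 genes in the same classes, too few to set against each other. FLAG regions were narrow, with median covered lengths of 125 and 150 bp at genes with both marks.

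**Figure D3:**
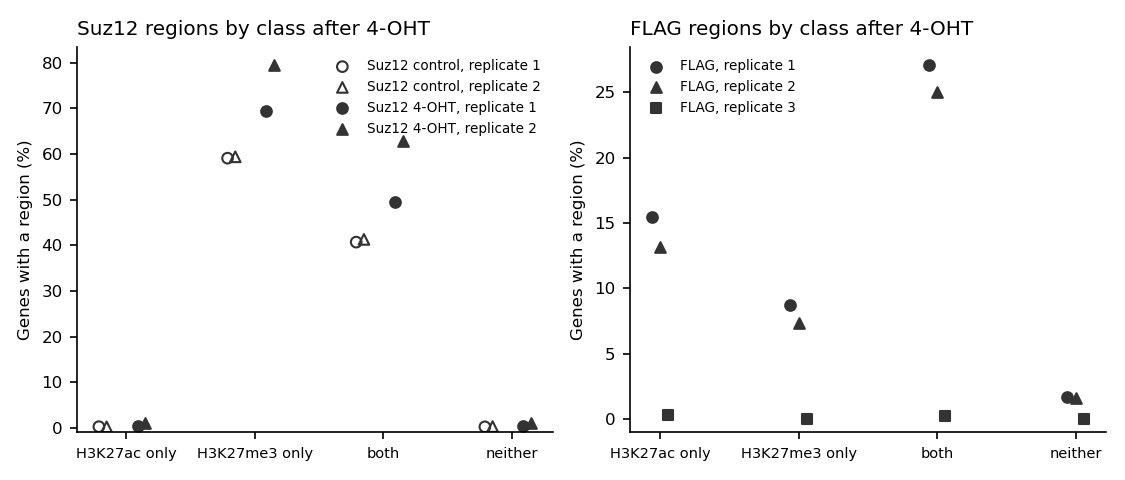
Percent of the genes of each class, as sorted after 4-OHT, that have a region of Suz12 (left, open symbols control and filled symbols 4-OHT) or FLAG (right) in each library. Suz12 lies at 69.4% and 79.5% of genes with H3K27me3 only after 4-OHT, and FLAG replicates 1 and 2 are highest where both marks are present, at 189 and 174 of 697 genes.

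Gene families differed in the classes of their members. Of 40 families and lists, 20 had H3K27me3 only as their most common class, alone or level with another, 12 H3K27ac only, 6 neither and 2 both marks. All 40 entries for Hox genes, which set position along the body axis, had H3K27me3 in each of the 3 replicates and Suz12 in both, and 35 had H3K27me3 only, against 9.04% of all genes. Entries are gene IDs of the annotation, so their number can exceed the number of genes. The remaining 5, among them Hoxb1 and Hoxc6, had both marks, against 3.12%. Hox genes lie in 4 clusters and neighbours share the same regions, so that they are not independent of each other.

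At Hoxb1, expressed in the early hindbrain, H3K27ac covered 325 and 797 bp and H3K27me3 850, 3025 and 3475 bp after 4-OHT. At Hoxc6, a gene of the thoracic trunk, the lengths were 275 and 1025 bp of H3K27ac and 1850, 4601 and 4226 bp of H3K27me3. H3K27me3 exceeded H3K27ac in each library at both genes, replicate 1 included. At Hoxd13 there was no H3K27ac in either condition, and H3K27me3 covered 3001, 4626 and 4651 bp after 4-OHT and 3226, 5001 and 4726 bp in control.

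Of the 14 Nkx genes, 13 had H3K27me3 only, and Nkx2-9, a gene of the ventral neural tube, had both marks, with 825 and 650 bp of H3K27ac beside 1751, 5001 and 4776 bp of H3K27me3. All 6 Dlx genes of forebrain and jaw and all 3 Cdx genes of posterior identity had H3K27me3 only. So had 8 of the 9 paired-box Pax genes, whereas Pax4, a pancreatic islet factor, had neither. Of 12 LIM homeobox genes, 10 had H3K27me3 only, and Lhx1 and Isl1 had both marks. The 6 Irx genes divided evenly, with H3K27me3 only at Irx1, Irx4 and Irx6 and both marks at Irx2, Irx3 and Irx5. At Irx1 H3K27me3 covered 2030, 4001 and 3601 bp after 4-OHT against 2976, 4451 and 3901 bp in control, each number below its control.

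The larger families held more classes. The 43 Fox genes comprised 19 with H3K27me3 only, 14 with H3K27ac only, 3 with both marks and 7 with neither. Among those with H3K27ac only were Foxm1, a cell cycle factor, Foxh1, a Nodal signal transducer, and Foxo1, Foxo3 and Foxo4, which act downstream of insulin signalling. The both class held Foxp2, Foxl2 and Foxe1. Of 19 entries for Sox genes, in which Sox4 is annotated at 2 IDs, 10 had H3K27me3 only, 6 H3K27ac only, 2 both marks and 1 neither. Sox2 and Sox9 were the genes with both marks. Sox3, on the X chromosome, had neither, with H3K27me3 in 1 of 3 replicates (450 bp), although Suz12 covered 1846 and 3146 bp there. Of the 14 Pou genes, 6 had H3K27me3 only, and the pluripotency gene Pou5f1 and the broadly expressed Pou2f1 had H3K27ac only. In the sine oculis homeobox family 3 of 6 genes had H3K27me3 only, 2 H3K27ac only and 1 both marks.

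Of 17 neural basic helix-loop-helix genes, 13 had H3K27me3 only. Neurod1, a neuronal differentiation factor, had both marks, with H3K27ac of 550 and 350 bp after 4-OHT and none in control, and H3K27me3 of 1225, 1750 and 750 bp against 2250, 2275 and 1900 bp. No 4-OHT library overlapped a control library at this gene in either mark. For lower H3K27me3 this was the case at 2.01% of all genes and 14.1% of those with both marks. The shares for higher H3K27me3 were 0.0402% and 0.287%. They were 21.0% and 41.5% for higher H3K27ac and 6.25% and 12.8% for lower H3K27ac. The both class needs H3K27ac in both 4-OHT replicates, so the sorting itself favours higher over lower H3K27ac. With the both class sorted in control, the shares were 32.3% for higher and 23.0% for lower H3K27ac. A start of Cerkl, which also had both marks, lies within 2.5 kb of Neurod1. Neurod4, Neurod6 and Nhlh1 had neither mark.

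Genes of heart development were mostly under H3K27me3 or under both marks. Of 13 cardiac transcription regulators, 6 had H3K27me3 only, namely Nkx2-5, Tbx5, Tbx20, Gata5, Mef2c and Hand2. Gata4, Gata6, Hand1 and Isl1, which mark early cardiac progenitors, had both marks, Mef2b and Myocd had H3K27ac only and Smyd1 neither. At Nkx2-5 H3K27me3 covered 2135, 5001 and 5001 bp after 4-OHT and 2960, 5001 and 5001 bp in control, so that in replicates 2 and 3 the window was full in both conditions. At Tbx5, required for the forelimb and heart chambers, the lengths were 1554, 4151 and 3576 bp after 4-OHT and 3154, 4651 and 4676 bp in control, each number below its control. Myocd, a coactivator of muscle genes, had short regions of H3K27ac, 100 and 225 bp after 4-OHT and 25 and 0 bp in control.

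At Gata4 after 4-OHT, H3K27ac covered 1708 and 2858 bp and H3K27me3 1141, 2791 and 3301 bp, and 550 bp were shared. At Hand1 the lengths were 300 and 1000 bp of H3K27ac and 1370, 3751 and 4701 bp of H3K27me3, with 100 bp shared. At Isl1 they were 325 and 800 bp and 655, 1350 and 950 bp, with none shared. The contractile genes stood apart from these regulators: of 17 cardiac sarcomere genes, 13 had neither mark, among them Myh6, Myh7 and Actc1. Myl4, Tnnc1 and Tnni3 had H3K27ac only and Tpm1 both marks, and at Tnni3 the H3K27ac regions were 81 and 31 bp.

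The 21 mesoderm and primitive streak regulators had both marks at 9 genes, H3K27ac only at 8, H3K27me3 only at 2 and neither at 2. Those with both were T, Eomes, Mixl1, Gsc, Evx1, Lhx1, Hand1, Fgf8 and Sp5. Those with H3K27ac only were Mesp1, Msgn1, Tbx6, Wnt3, Nodal, Snai1, Lefty2 and Axin2. Foxa2, an endoderm and node factor, and Snai2 had H3K27me3 only, and Mesp2 and Cer1 neither. Which class was the most common of this list changed in 10 of 16 alternative settings.

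At Mixl1, H3K27me3 was 25, 0 and 25 bp after 4-OHT and absent in control, and H3K27ac 2150 and 2875 bp against 2250 and 2825 bp. A single grid step of 25 bp in each of replicates 1 and 3 thus placed it among the genes with both marks. At T, the Brachyury gene, H3K27me3 was 0, 175 and 200 bp and H3K27ac 1000 and 1050 bp after 4-OHT, against 1400 and 1750 bp of H3K27ac in control. Gsc and Lhx1 held long regions of both: at Gsc 2075 and 2050 bp of H3K27ac and 762, 4701 and 4751 bp of H3K27me3, and at Lhx1 1900 and 2200 bp and 1025, 4075 and 4263 bp. At Eomes, the T-box factor of early mesoderm and endoderm, H3K27ac covered 2825 and 3954 bp after 4-OHT and 4304 and 5001 bp in control, and H3K27me3 571, 1896 and 821 bp against 100, 1546 and 1746 bp. H3K27ac was thus lower in both 4-OHT libraries than in either control library, and H3K27me3 overlapped.

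H3K27ac covered less in both 4-OHT libraries than in either control library at 10 of these 21 genes, against 6.25% of all genes, 9.95% of the genes with H3K27ac only and 12.8% of those with both marks. They were T, Eomes, Mesp1, Mesp2, Msgn1, Gsc, Snai1, Cer1, Lefty2 and Axin2. Classes sorted after 4-OHT leave out genes that lost the H3K27ac call, such as Mesp2 and Cer1, which lowers their shares. With the classes sorted in control, the shares were 12.3% with H3K27ac only and 23.0% with both marks. At Mesp1, the earliest cardiac mesoderm factor, the lengths were 575 and 1150 bp after 4-OHT and 1376 and 2801 bp in control. At Snai1, which drives the epithelial to mesenchymal transition, they were 945 and 1220 bp against 2495 and 3870 bp. At Cer1, a secreted Nodal inhibitor, they were 0 and 325 bp against 1300 and 1850 bp. Fgf8 was the 1 member above both controls, against 21.0% of all genes, with 3726 and 3326 bp after 4-OHT and 2580 and 2451 bp in control. With 2 libraries in each group the exact test cannot go below p = 0.333 for any of these genes.

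**Figure D4:**
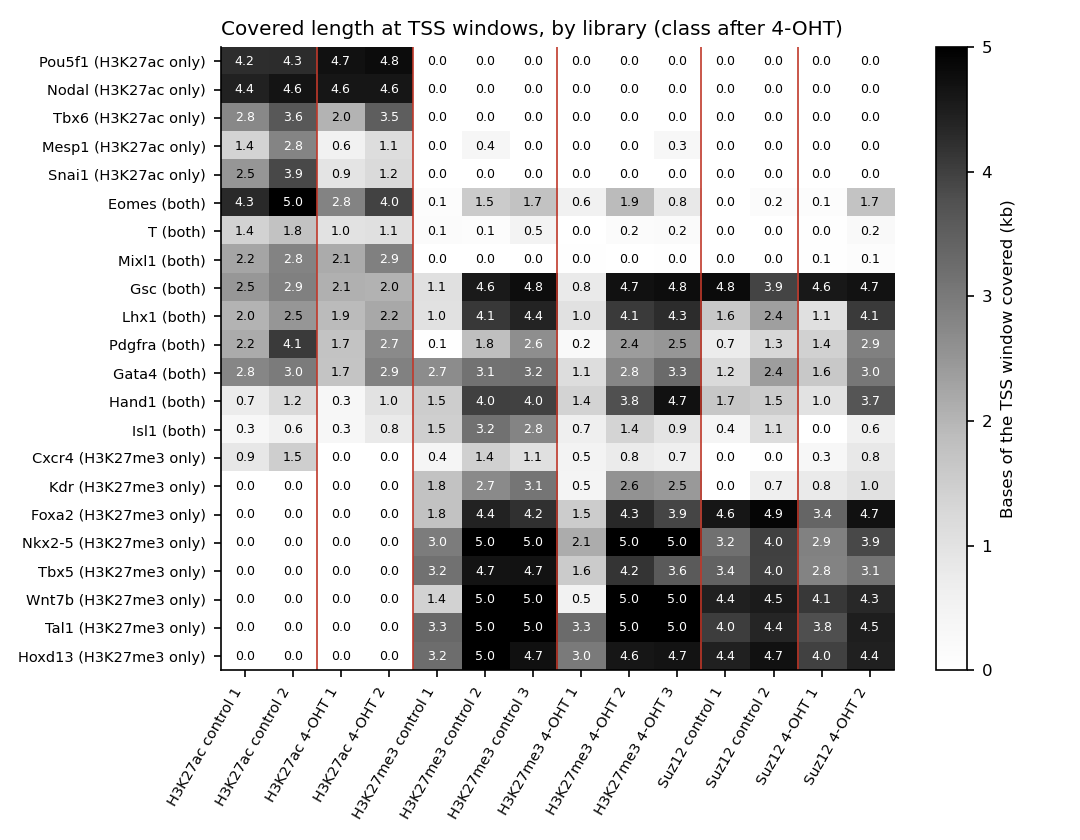
Bases (kb) of the TSS window covered by a region in each library of H3K27ac, H3K27me3 and Suz12, for 22 regulators chosen after their values were seen, with the class after 4-OHT in parentheses; each cell gives the value and darker cells are longer. From Pou5f1 at the top to Hoxd13 at the bottom H3K27ac gives way to H3K27me3 and Suz12, and Gsc, Lhx1 and Gata4 hold long regions of both marks.

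Pluripotency regulators were spread over the classes. Of 18, 7 had H3K27ac only, among them Pou5f1 and Nanog, 6 had both marks (Sox2, Klf2, Klf4, Klf5, Tbx3 and Utf1), Esrrb, Prdm14 and Tcfcp2l1 had H3K27me3 only, and Dppa3 and Dppa5a had neither. At Pou5f1 H3K27ac covered 4694 and 4769 bp after 4-OHT and 4244 and 4269 bp in control, with no H3K27me3. At Sox2 it covered 2325 and 2400 bp against 1400 and 425 bp, beside H3K27me3 of 200, 983 and 425 bp against 558, 2426 and 1133 bp. At Nanog it covered 1275 and 1550 bp against 1925 and 1986 bp. Of the 18, 5 (Pou5f1, Sox2, Klf4, Utf1 and Tdgf1) were above both controls, against 21.0% of all genes, and 1 (Nanog) was below them, against 6.25%, so that the shares of the list were close to those of all genes.

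Among 19 endothelial and blood regulators 10 had H3K27me3 only, Runx1 and Pdgfra had both marks, Etv2 had H3K27ac only and 6 had neither. H3K27ac was below both controls at 5 of the 19, Runx1, Etv2, Fli1, Pdgfrb and Cxcr4, against 6.25% of all genes, and above them at 0. A gene can lie above them only with H3K27ac in both 4-OHT replicates. Only Runx1, Pdgfra and Etv2 had this, so the 0 was nearly fixed by the classes and is not set against all genes. At Etv2, the factor that starts the endothelial and blood program, it covered 233 and 1033 bp after 4-OHT against 2408 and 3683 bp. At Cxcr4, a chemokine receptor of migrating mesoderm, it was absent after 4-OHT against 875 and 1500 bp, and H3K27me3 covered 484, 750 and 650 bp against 409, 1434 and 1059 bp, so that Cxcr4 had both marks in control and H3K27me3 only after 4-OHT. At Pdgfrb, a receptor of mural cells, H3K27ac was absent against 1604 and 2504 bp, and no library held H3K27me3.

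The receptors used to mark cardiogenic mesoderm fell into different classes. Kdr, which encodes Flk-1, had H3K27me3 only, with 450, 2575 and 2450 bp after 4-OHT and 1758, 2700 and 3075 bp in control and no H3K27ac in either condition. Pdgfra had both marks, with H3K27ac of 1726 and 2701 bp against 2151 and 4076 bp and H3K27me3 of 250, 2391 and 2491 bp against 50, 1825 and 2625 bp. The libraries of the conditions overlapped in both marks at Pdgfra. Of 17 T-box genes, 8 had H3K27me3 only, T, Eomes, Tbx2 and Tbx3 had both marks, 2 had H3K27ac only and 3 neither. Of the 6 Gata genes, Gata3, Gata4 and Gata6 had both marks, Gata2 and Gata5 H3K27me3 only and Gata1 neither. Cyp26a1, which degrades retinoic acid, had H3K27me3 only, at 823, 4278 and 4603 bp.

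Of 19 Wnt ligands 12 had H3K27me3 only, among them Wnt4, Wnt6, Wnt7b and Wnt10a, 4 had both marks (Wnt5a, Wnt5b, Wnt9a and Wnt11), Wnt3 and Wnt8a had H3K27ac only and Wnt8b neither. At Wnt7b H3K27me3 covered 525, 5001 and 5001 bp after 4-OHT, and at Wnt4 0, 1675 and 525 bp against 425, 2525 and 2550 bp in control. At Wnt3, the streak-inducing ligand, H3K27ac covered 3012 and 2912 bp, and at Wnt8a 825 and 1100 bp against 425 and 950 bp. Wnt5a, a non-canonical ligand, carried both marks at length, with 2500 and 2975 bp of H3K27ac and 1825, 2272 and 3151 bp of H3K27me3.

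Of the 10 Frizzled receptors of these ligands, 4 had H3K27ac only, 4 both marks and 2 H3K27me3 only. None had neither mark, against 42.9% of all genes. Of 13 secreted Wnt antagonists 6 had H3K27me3 only, Sfrp1 among them at 2402, 4552 and 4952 bp, 5 had neither, and Frzb and Dkk1 had both marks. At Frzb the marks were 1050 and 1800 bp of H3K27ac and 375, 450 and 744 bp of H3K27me3.

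Of 22 Fgf ligands, 8 had H3K27me3 only, 7 neither, 6 both marks and 1 H3K27ac only. Fgf5, a ligand of the epiblast, was in the H3K27ac only class in control and in neither after 4-OHT, with 150 and 0 bp of H3K27ac against 600 and 125 bp. Of 24 Bmp, Gdf, Nodal and Lefty ligands, 9 had H3K27me3 only, 8 H3K27ac only, 2 both marks and 5 neither. At Nodal, the ligand that patterns the streak, H3K27ac covered 4620 bp in both 4-OHT libraries against 4426 and 4645 bp in control. Lefty1, a Nodal inhibitor, had 200 bp in each 4-OHT library against 1275 and 1025 bp in control, and its short H3K27me3 regions of 225 and 25 bp in control replicates 1 and 2 were absent after 4-OHT.

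Of 13 genes for PRC2 subunits and H3K27 demethylases, 12 had H3K27ac only, against 45.0% of all genes, and Phf19, a PRC2 partner, had both marks at different TSSs. At Phf19 H3K27me3 covered 50, 1300 and 1125 bp after 4-OHT and 850, 1875 and 1975 bp in control. Of 9 acetyltransferase genes 7 had H3K27ac only and Crebbp and Myst3 had both marks. At Crebbp, which encodes CBP, H3K27me3 was 350, 4 and 75 bp, beside 1200 and 1225 bp of H3K27ac.

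Of 21 BAF subunit genes 16 had H3K27ac only. Smarca2, which encodes the alternative ATPase Brm, had both marks at different TSSs, with 2000 and 1825 bp of H3K27ac and 1050, 726 and 350 bp of H3K27me3. Smarcd3, which encodes the cardiac subunit Baf60c, had H3K27me3 only, at 1250, 3556 and 2983 bp after 4-OHT and 1850, 3656 and 3358 bp in control. The neuronal subunit genes Actl6b and Dpf1, and Dpf3, a subunit of heart and muscle, had neither mark. Each of the 21 was in the same class in both conditions.

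Genes used by every cell mostly had H3K27ac only. H3K27ac only was found at 77 of 78 ribosomal protein genes, 37 of 41 proteasome genes, 45 of 50 initiation factor genes, 36 of 37 complex I genes and 64 of 67 replication-dependent histone genes. Psmb8, an immunoproteasome subunit, had H3K27me3 only, and Ndufa1, on the X chromosome, had neither. H3K27ac was longer in both 4-OHT libraries than in either control library at 48 of the 78 ribosomal genes and shorter at 0, against 43.9% and 9.95% of all genes with H3K27ac only. With this class sorted in control, the shares were 41.8% and 12.3%. The counts of longer and shorter were 20 and 1 of 41 proteasome genes, 27 and 1 of 50 initiation factor genes, 16 and 2 of 37 complex I genes and 15 and 8 of 67 histone genes. The median H3K27ac length of the histone genes was 3277 bp after 4-OHT and 3392 bp in control, whereas that of the ribosomal genes was 3443.75 and 2950 bp.

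Genes with neither mark were led by receptors of the nose and by epithelial products. Neither mark was found at 1084 of 1087 odorant receptor genes, 320 of 320 vomeronasal receptor genes, 53 of 53 defensin genes and 45 of 46 keratin-associated protein genes. The 3 odorant receptors with a mark were Olfr543 and Olfr222 with H3K27ac only and Olfr95 with H3K27me3 only, and Olfr222 had 25 and 225 bp of H3K27ac after 4-OHT against 750 and 1075 bp in control. Of the clustered protocadherins 14 of 24 had neither mark and 9 H3K27me3 only. Of 18 voltage-gated potassium channel entries 12 had H3K27me3 only. The broad families were closer to all genes: of 344 Zfp genes 232 had H3K27ac only and 91 neither, and of 347 solute carriers 153 had H3K27ac only, 136 neither and 48 H3K27me3 only.

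**Figure D5:**
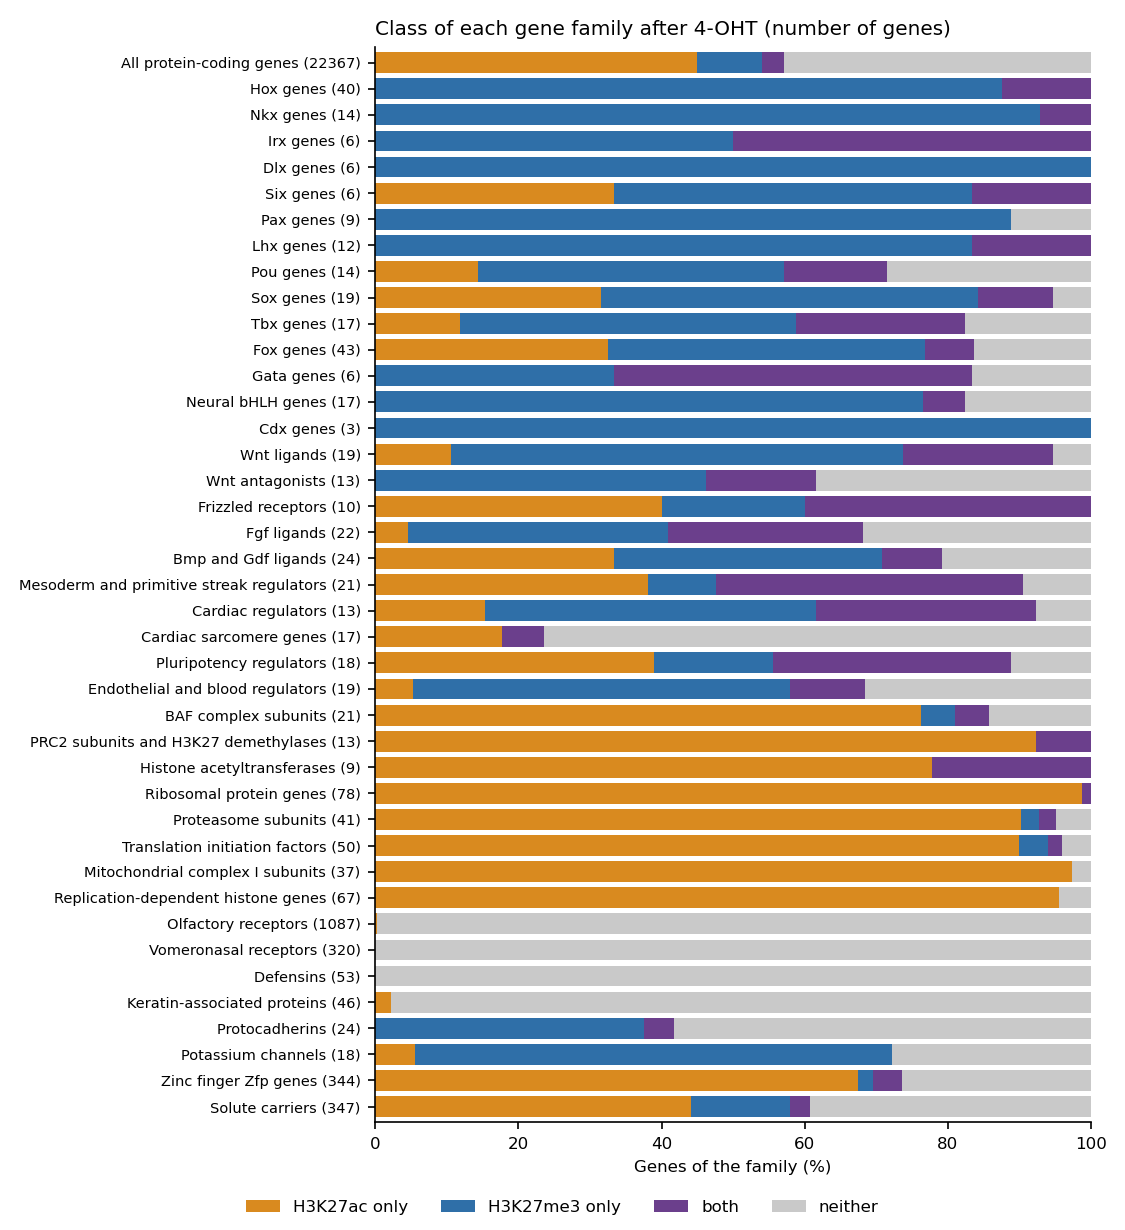
Percent of the genes in each class after 4-OHT for all 22367 protein-coding genes and for 40 families and lists, with the number of genes in parentheses. H3K27me3 only was found at 35 of 40 Hox entries and 7 of 344 Zfp genes, H3K27ac only at 77 of 78 ribosomal protein genes and neither mark at 1084 of 1087 odorant receptor genes.

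When genes were grouped by the letters of their symbols before the first digit, 237 groups held at least 10 genes. H3K27ac only took at least 50% of the members in 123 groups, neither in 71, H3K27me3 only in 13 and both marks in 0. The 13 were Hoxa, Hoxb, Nkx, Wnt, Tbx, Sox, Bmp, Pcdh, Kcnk, Kcnj, Cacna, Htr and Adcy. They comprise families of patterning factors and ligands and also families of ion channels (Kcnk, Kcnj, Cacna), serotonin receptors (Htr) and adenylyl cyclases (Adcy), of which 9 of 14, 8 of 15, 8 of 14, 8 of 14 and 5 of 10 members had H3K27me3 only. The X chromosome held fewer marked genes than the rest, with H3K27me3 only at 2.68% and both marks at 0.429% of its 932 genes, against 9.04% and 3.12% of all genes, and neither mark at 64.2%.

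The class after 4-OHT was the class in control for 20959 genes (93.7%). The same rule gave 9817 genes (43.9%) with H3K27ac only in control, 2321 (10.4%) with H3K27me3 only, 832 (3.72%) with both marks and 9397 (42.0%) with neither. The both class turned over most: of the 832 in control, 542 (65.1%) remained, 204 had H3K27ac only after 4-OHT, 74 H3K27me3 only and 12 neither. Of the 697 genes with both marks after 4-OHT, 122 had H3K27me3 only in control, 31 had H3K27ac only and 2 had neither. Among these 697, 38.0% had H3K27me3 in exactly 2 of 3 replicates, and the part of such calls near the limit in this turnover was not tested. H3K27me3 was called in control and not after 4-OHT at 514 genes (2.30%) and in the opposite direction at 80 (0.358%). For H3K27ac these counts were 381 (1.70%) and 489 (2.19%). With each list of a mark limited to its widest regions in equal number (6787 for H3K27me3), 348 genes lost H3K27me3 and 117 gained it.

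By library, H3K27me3 was called at 2712, 2905 and 2500 genes in 4-OHT replicates 1 to 3 and at 3684, 3149 and 2967 in control replicates 1 to 3. All 4-OHT libraries were below all control libraries, with means of 2706 ± 203 and 3267 ± 373 (SD, n = 3 each), and the exact two-sided permutation test gave p = 0.100, the smallest possible. The difference of -561 genes was -209 with equal numbers of regions (p = 0.500, exact permutation test). H3K27ac was called at 11227 and 10926 genes after 4-OHT and 11108 and 11000 in control, with means of 11076.5 ± 213 and 11054 ± 76.4 (SD, n = 2 each) and p = 1.00 in the exact two-sided permutation test.

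Within the genes, the length of H3K27me3 was lower after 4-OHT in all 3 replicate numbers at 1679 genes (7.51%) and higher at 40 (0.179%). Of the genes with H3K27me3 only, 1118 of 2022 (55.3%) were lower in all 3 and 29 (1.43%) higher, and of those with both marks 359 of 697 (51.5%) and 11 (1.58%). Of the families, 16 of 40 Hox entries were lower and 0 higher, 16 of 43 Fox genes lower and 0 higher and 7 of 19 Wnt genes lower and 2 higher. The Hox windows were close to full, with a median covered length of 4763.5 bp after 4-OHT and 5001 bp in control. The 4-OHT lists of H3K27me3 were also shorter as a whole, covering 4.74, 8.99 and 7.62 Mb against 8.38, 11.0 and 10.0 Mb, and its part in these counts was not tested.

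The rule has a limit, and genes lie close to it on either side. Just inside, 415 of the 2022 genes with H3K27me3 only (20.5%) and 265 of the 697 with both marks (38.0%) had H3K27me3 in exactly 2 of 3 replicates. Of the genes with both marks, 162 (23.2%) had under 200 bp of H3K27me3. Just outside, 306 of the genes with H3K27ac only (3.04%) and 334 with neither (3.48%) had H3K27me3 in 1 replicate, and 179 with H3K27me3 only (8.85%) and 460 with neither (4.80%) had H3K27ac in 1 of 2. Mesp1, with H3K27me3 of 350 bp in replicate 3 alone, and Hand2, with H3K27ac of 150 bp in replicate 2 alone, lay just outside the both class.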

How the data were processed

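ChIP-seq libraries were aligned by the authors to mm9 with Bowtie, per the submitters' processing notes. Per the labels and the names of the lists, the authors called enriched regions in each replicate against input with a Poisson model at a p-value threshold of 1e-12 for H3K27ac, H3K27me3 and Suz12, and of 1e-06 with at least 2-fold enrichment for FLAG. Read filters and the version of the aligner are not given in the sources used here. The deposited lists hold chromosome, start and end, with edges on a 25 bp grid, and no score or count. The labels describe the replicates as biological. The 11 inputs served the calling and were not used otherwise.

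TSSs of protein-coding genes were taken from the GENCODE annotation of mm9, without the mitochondrial genome. A gene was called in a library when a region overlapped the window of any TSS by 1 bp. Families were matched by symbol, older symbols through RefSeq. Genes named are Smarca4, members outside their family's most common class, genes that the study names, and those with the widest or most shared regions; a few others, such as Hoxd13, Fli1 and Lefty1, were named after their values were seen. Some genes that this rule names are not reported here. Of the genes, 142 IDs share a symbol with another. The members and lists were chosen with earlier results of these data known. Library totals were compared by exact two-sided permutation tests, with the smallest p of 0.333 for 2 against 2 and 0.1 for 3 against 3. Same-numbered H3K27me3 libraries deviated together (correlation over genes 0.887, 0.767 and 0.692 for numbers 1 to 3), so these numbers were taken to pair the samples. Unlike numbers gave -0.670 to -0.780 where replicate 1 was involved. The covered lengths were first centred on the mean of their condition at each gene, so deviations cancel within a condition. As replicate 1 stood apart in both conditions, its values do not by themselves show that the samples were paired. Control 2 with 4-OHT 3 gave 0.461 and control 3 with 4-OHT 2 gave 0.578, so numbers 2 and 3 were told apart less clearly. For H3K27ac, with 2 pairs, the correlation was 0.389 and no pairing was taken. The class rule was tested on simulated lists. Scripts ran in Python 3.11.15 with NumPy 2.4.6 and SciPy 1.17.1, and plots were drawn with Matplotlib 3.10.9.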

Additional observations from a re-analysis of the deposited data

How the results depend on the processing

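The counts with H3K27ac only, H3K27me3 only and neither mark stayed within 1.5 times of those reported in all 16 alternatives, and the count with both marks did not. It was 409 with a 1 kb window, 220 with regions of at least 500 bp, 237 with at least 500 bp of the window covered and 432 with H3K27me3 needed in all 3 replicates. Leaving out a replicate also changed the rule. Without 1 H3K27me3 replicate, both remaining ones had to hold the mark, and the count was 553, 465 and 543 without replicates 1, 2 and 3. Without 1 H3K27ac replicate, the other alone was used, and the count was 751 and 822 without replicates 1 and 2. A gene kept its class in every alternative at 76.6% with H3K27ac only, 55.4% with H3K27me3 only, 12.2% with both marks and 88.4% with neither. Among the 85 genes that always had both were Gsc, Lhx1, Gata4, Gata6, Pdgfra, Tbx3, Klf4, Wnt5a, Irx3, Irx5 and Six2.

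The difference in H3K27ac genes per library, 22.5, changed sign to -52.5 with a 5 kb window and ranged from -128 to 173 without a single library. It was 412 with regions of at least 500 bp, 350 with equal numbers of regions and 318 with at least 500 bp of the window covered (p = 0.333 each in the exact permutation test, the smallest possible). It was negative without 4-OHT replicate 1 (-128) and without control replicate 2 (-31.5). That of H3K27me3 stayed negative in each alternative, from -711 to -209. It was -505 with a 1 kb window and -517 with regions of at least 500 bp (p = 0.200 each in the exact permutation test). In these 2 settings the 4-OHT libraries were thus not all below the control libraries. With the replicate number as a block, the exact sign-flip permutation test gave p = 0.250 for H3K27me3 (a difference of -561) and 1.00 for H3K27ac (22.5). The most common class was the same in every alternative for 30 of 40 families. The lists carry no scores, so a stricter threshold could be tried only by width, and the depth of the libraries was not tested.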
